A study of Mus musculus with 6 samples.

Results

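Neutrophil granule protein genes were compared between myosin IIa-deficient and haploinsufficient follicular B cells. The 10 genes were Mpo and Elane for the primary granules, Lcn2, Ngp, Camp, Ltf and Mmp8 for the secondary granules, Mmp9 for the tertiary granules, Pglyrp1 for secondary and tertiary granules, and Lyz2 for all granule types. They were taken by gene symbol from a table of 20458 gene names, and each had a single entry there. The genes were selected on their FPKM in both genotypes, with these values already known, so every value is a description and no test was made on it.

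Follicular B cells, gated as B220+AA4.1-CD23+CD21lo, came from C57BL/6 mice of the genotypes CD23Cre+Myh9wt/fl and CD23Cre+Myh9fl/fl, with 3 samples each. All 6 samples carried Cre driven by the CD23 promoter and at least 1 floxed Myh9 allele, so the control cells had lost Myh9 on 1 allele and were not wild-type. RNA was amplified before sequencing, and the labels give neither the age of the mice nor whether a sample was pooled from several animals. The authors deposited 1 FPKM (fragments normalised for transcript length and library size) per genotype, pooled over its 3 samples, so no value has a spread, no mouse can be seen apart from the others, and read depth is unknown.

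Neutrophils store antimicrobial proteins and proteases in granules that are filled one type after another as the cell matures in the bone marrow. Primary granules and their transcripts are made at the promyelocyte stage, secondary (specific) granules at the myelocyte and metamyelocyte stages under the transcription factor C/EBP epsilon, and tertiary (gelatinase) granules later still. Follicular B cells do not make such granules, and the sorting gate selects for B cell surface proteins.

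Myh9, which encodes the myosin IIa heavy chain, was at 50.6 FPKM in wt/fl against 21.1 FPKM in fl/fl cells, 41.7% of the haploinsufficient level. In these mice a single exon of Myh9 is floxed, and the paper checked its deletion by mRNA of that exon and by protein. The FPKM here is of the whole gene, so it does not measure how much intact Myh9 transcript was left. Markers of follicular B cells defined both groups. The 10 listed genes summed to 5304 FPKM in wt/fl against 5585 FPKM in fl/fl, led by Cd79b (1638 and 1739 FPKM) and Cd79a (1098 and 1115 FPKM), the signalling chains of the B cell receptor, and the gene furthest from 0 was Fcer2a (CD23, 439 and 588 FPKM, log2 ratio 0.42). Log2 ratios here are of fl/fl over wt/fl with 1 FPKM added to both, which understates the difference of low genes.

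The stretches before the transcription starts of 4 secondary granule genes are shown, and all 4 genes had a lower FPKM in fl/fl. That of Pglyrp1, whose FPKM was not lower, is shown beside them. Mpo, Elane and Lyz2 also had a lower FPKM in fl/fl, and their stretches are not shown. The stretches were picked with the values known, so a contrast among those printed is not a result. Lcn2 has none shown, since the first base of its window already lies in an annotated exon. The sequences are from RefSeq on GRCm38.p6, matched by symbol for 9 of the 10 genes (Mmp9 was not matched), and cover the 250 bases before the start, cut short where GENCODE M21 annotates an exon of the gene. They run 5′ to 3′ toward the gene, and capitals mark TTGCNNAA on either strand, a motif of the C/EBP type.
Ngp (chr9:110419558-110419746, plus strand): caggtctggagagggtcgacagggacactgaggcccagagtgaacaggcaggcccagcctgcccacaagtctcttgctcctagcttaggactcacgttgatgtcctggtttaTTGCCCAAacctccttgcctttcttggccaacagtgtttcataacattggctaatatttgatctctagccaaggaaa
Ltf (chr9:111019042-111019270, plus strand): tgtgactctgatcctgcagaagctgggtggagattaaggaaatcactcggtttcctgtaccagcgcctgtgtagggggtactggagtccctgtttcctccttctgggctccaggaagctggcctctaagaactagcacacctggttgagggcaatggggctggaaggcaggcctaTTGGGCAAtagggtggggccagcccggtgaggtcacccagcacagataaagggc
Mmp8 (chr9:7558179-7558428, plus strand): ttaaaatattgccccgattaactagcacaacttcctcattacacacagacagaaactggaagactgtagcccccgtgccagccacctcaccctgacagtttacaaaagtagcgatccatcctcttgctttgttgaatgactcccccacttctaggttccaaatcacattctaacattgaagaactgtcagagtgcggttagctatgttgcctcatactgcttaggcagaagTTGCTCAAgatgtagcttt
Camp (chr9:109849618-109849706, minus strand): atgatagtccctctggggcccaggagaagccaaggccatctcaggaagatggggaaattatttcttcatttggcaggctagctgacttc
Pglyrp1 (chr7:18884440-18884679, plus strand): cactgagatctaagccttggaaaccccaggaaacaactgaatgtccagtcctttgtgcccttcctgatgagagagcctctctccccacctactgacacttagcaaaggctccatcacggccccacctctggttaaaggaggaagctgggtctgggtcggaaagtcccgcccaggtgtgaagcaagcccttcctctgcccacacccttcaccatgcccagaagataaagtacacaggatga
In the full window of 250 bases, searched on both strands, TTGCNNAA was present in 4 of the 5 secondary granule genes (Lcn2, Ngp, Ltf and Mmp8) and in 0 of the other 4 genes with a sequence (Mpo, Elane, Pglyrp1 and Lyz2). Of all 32851 promoters in the table, 9.56% held it. The match of Ngp at positions -138 to -131 from the start reads TTGCCCAA, and that of Ltf at -75 to -68 is the same 8 bases on the opposite strand. Ngp had a further match at -11 to -4, and Lcn2 a match at -216 to -209 that reads TTGCTCAA. Both lie past the first base annotated as exon in their windows and are not printed above. Before that base, a match was left in Ngp, Ltf and Mmp8, but not in Lcn2 or Camp. The share over all promoters was taken without this cut. The match of Mmp8 at -19 to -12 also reads TTGCTCAA. The motif AGAGGAAG, of the type bound by PU.1, was found on either strand in Mpo (2 matches) and in Pglyrp1 (1 match), and in 3.67% of all promoters. A match describes letters only, and binding was not measured. The genes were chosen with their values known, and a link between the motif and the genotype ratios was not tested.

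The secondary granule genes were lower in fl/fl cells, and those of the highest level were lower by nearly the same proportion. Ngp, which encodes neutrophilic granule protein, was at 13.4 FPKM in wt/fl against 1.29 FPKM in fl/fl cells, or 9.66% of the wt/fl level (log2 ratio -2.65). Its locus lies on chromosome 9 from 110322311 to 110325516 (mm9, as all positions from the deposited table). Lcn2 encodes lipocalin 2, which withholds iron from bacteria by binding their siderophores. It went from 12.6 to 1.21 FPKM, 9.57% of the wt/fl level, with a log2 ratio of -2.62 (chromosome 2 from 32240156 to 32243259). Camp, the gene of the antimicrobial peptide cathelicidin, had 15.3 and 1.70 FPKM, leaving 11.1% in fl/fl, with a log2 ratio of -2.59 (chromosome 9 from 109749890 to 109751970). Set against Ngp within a genotype, Lcn2 was 0.939 times as high in wt/fl cells and 0.931 times in fl/fl cells, and Camp 1.14 and 1.32 times. The proportions of the 3 transcripts to each other were thus close in both genotypes while their sum went from 41.3 to 4.20 FPKM.

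**Figure D1:**
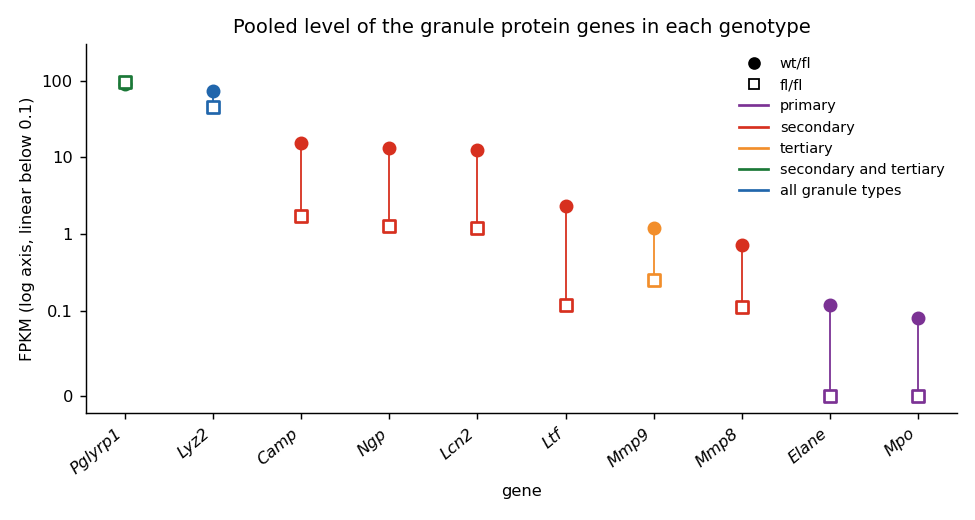
Each gene's pooled FPKM in wt/fl (filled circles) and fl/fl (open squares) is drawn on a log axis that is linear below 0.1, in order of the wt/fl level and coloured by granule type. Camp, Ngp and Lcn2 go from between 12.6 and 15.3 FPKM to between 1.21 and 1.70 FPKM, whereas the circle and square of Pglyrp1 nearly coincide.

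Ltf and Mmp8 were at lower levels. Ltf, which encodes the iron-binding protein lactoferrin, had 2.31 FPKM in wt/fl against 0.118 FPKM in fl/fl, 5.11% of the wt/fl level, with a log2 ratio of -1.57 (chromosome 9 from 110921795 to 110945270). Mmp8, the neutrophil collagenase, had 0.731 and 0.111 FPKM, or 15.2% (chromosome 9 from 7558428 to 7568486). Its mean lies under 1 FPKM, the minimum used when genes were counted, and its log2 ratio was -0.64. The 5 secondary granule genes summed to 44.3 FPKM in wt/fl against 4.43 FPKM in fl/fl, with a median log2 ratio of -2.59. Without Mmp8 the median was -2.61, beside 0.0026 for the 9879 genes of the table whose mean reached 1 FPKM.

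Mmp9, the gelatinase that gives the tertiary granules their other name, was at 1.19 FPKM in wt/fl against 0.253 FPKM in fl/fl, 21.2% of the wt/fl level (log2 ratio -0.81, chromosome 2 from 164773750 to 164781346). Like Mmp8 it stayed under a mean of 1 FPKM. Among the 1754 genes with a mean of 0.2 to 1 FPKM, 3.59% had an FPKM at least 4-fold lower in fl/fl, as Mmp8 and Mmp9 did, so differences of this size were uncommon but present at such levels.

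The primary granule genes were close to the bottom of the scale in both genotypes. Mpo, which encodes myeloperoxidase, was at 0.0916 FPKM in wt/fl and listed at 0 in fl/fl (chromosome 11 from 87607285 to 87617914). Elane, which encodes neutrophil elastase, was at 0.119 FPKM in wt/fl and likewise listed at 0 in fl/fl (chromosome 10 from 79349056 to 79350961). Of the 2674 genes with a mean of 0.02 to 0.1 FPKM, 10.1% were listed at 0 in fl/fl and above 0 in wt/fl, and 24.2% were at least 2-fold lower. No fold is given for either gene, and a genotype difference at this level cannot be read from 1 pooled value each.

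Pglyrp1 and Lyz2 had the highest levels of the 10 genes and did not follow the secondary granule genes. Pglyrp1, which encodes a peptidoglycan recognition protein that kills bacteria, was at 90.5 FPKM in wt/fl against 95.6 FPKM in fl/fl, 106% of the wt/fl level (log2 ratio 0.08, chromosome 7 from 19470038 to 19475787). It was the only gene of the 10 with a higher value in fl/fl. Lyz2, which encodes the lysozyme of myeloid cells, had 72.6 and 44.9 FPKM, leaving 61.9% (log2 ratio -0.68, chromosome 10 from 116714596 to 116719328). In absolute terms its level was 27.7 FPKM apart between the genotypes, against 12.1 FPKM for Ngp. Set against Ngp, Pglyrp1 was 6.75 times as high in wt/fl and 73.9 times as high in fl/fl, and Lyz2 5.42 and 34.7 times. Of the 858 genes with a mean of 50 to 100 FPKM, 1.17% were at least 1.5-fold lower in fl/fl, as Lyz2 was. Lyz1, its neighbour and near copy, was at 1.80 and 1.86 FPKM. The reference transcripts of the pair are 95.8% identical over their alignment, so the split of fragments between them is uncertain.

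The order of the 10 genes by level was nearly the same in both genotypes, with Pglyrp1 first, then Lyz2, Camp, Ngp and Lcn2, and with Ltf above Mmp9 in wt/fl but below it in fl/fl. Camp, Ngp and Lcn2 lay within 12.6 to 15.3 FPKM in wt/fl, and without a spread between samples their order cannot be resolved. Of the summed level of the 10 genes, 208.9 FPKM in wt/fl against 145.3 FPKM in fl/fl, Pglyrp1 made up 43.3% and 65.8%, and the 5 secondary granule genes the 44.3 and 4.43 FPKM given above. The 10 genes together were 0.0351% of the FPKM of the whole table in wt/fl and 0.0244% in fl/fl.

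Among genes whose mean reached 1 FPKM, 0.405% (40 of 9879) were at least 2-fold lower in fl/fl on the scale with 1 FPKM added, and 0.0911% (9) were at least 2-fold higher. Of the 10 granule genes 6 passed that minimum, Ltf only through its wt/fl value, and 4 of these were at least 2-fold lower (Lcn2, Ngp, Camp and Ltf), with 0 at least 2-fold higher. The other 4 genes (Mpo, Elane, Mmp8 and Mmp9) are described by their values above. From the lowest ratio upward, Ngp stood in place 4, Lcn2 in place 5, Camp in place 6, Ltf in place 15, Lyz2 in place 98 and Pglyrp1 in place 6810 of the 9879 genes. Among the 1782 genes with a mean of 5 to 10 FPKM, 4 (0.224%) were at least 8-fold lower in fl/fl without a pseudocount, and these were Ngp, Lcn2, Camp and Klk1b22, a kallikrein gene with 11.5 FPKM in wt/fl against 0.0943 FPKM in fl/fl that has close copies. Among the 750 genes with a mean of 1 to 2 FPKM, where Ltf lies, 5 (0.667%) were. Because the genes were picked with these values known, their share cannot be read against the background as a result.

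**Figure D2:**
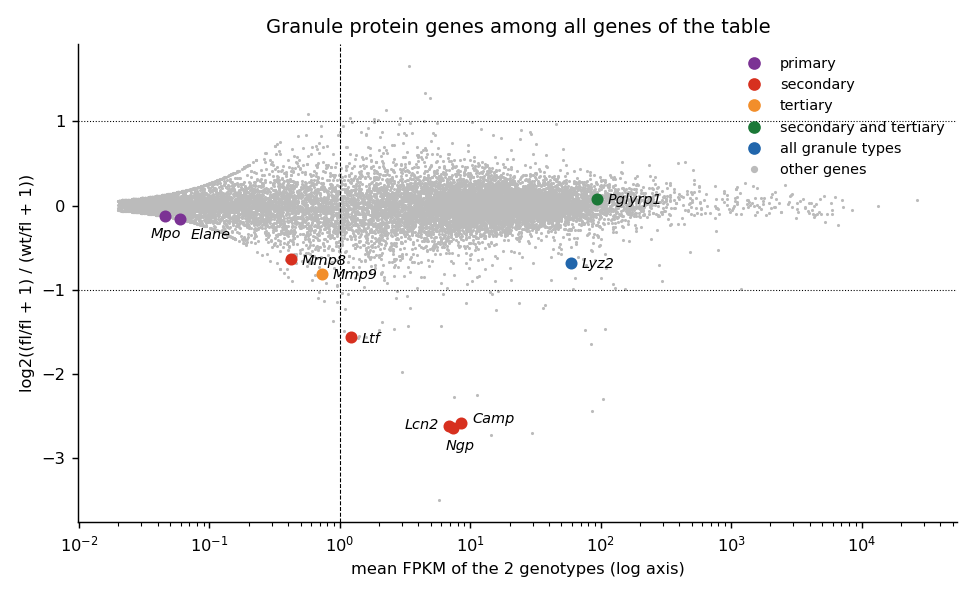
The log2 ratio of fl/fl over wt/fl with 1 FPKM added is plotted against the mean FPKM of both genotypes for all genes from a mean of 0.02 FPKM. The granule genes are coloured by type, dotted lines mark 2-fold and the dashed line a mean of 1 FPKM; Lcn2, Ngp and Camp lie together near -2.6, and Pglyrp1 lies within the main cloud at 0.08.

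The genes outside the 10 whose log2 ratios were nearest to the median of the secondary granule genes, among genes averaging 5 FPKM or more, were 2 globin gene names and 3 neutrophil transcripts. Likeness here is the distance between log2 ratios from 1 pooled value per genotype. The added 1 FPKM compresses the ratios of low genes more than those of high genes, so part of the likeness depends on it. Set against Ngp, S100a8 was 10.8 times as high in wt/fl and 19.9 times as high in fl/fl. Beta-s, a beta-globin, was at 52.0 and 7.08 FPKM (log2 ratio -2.71), and the entries shared by Hba-a1 and Hba-a2, alpha-globins, at 25.8 and 3.05 FPKM (-2.73). Copies of globin genes share fragments, so their separate levels are uncertain. S100a8 had 145 and 25.8 FPKM (-2.45) and S100a9 175 and 34.5 FPKM (-2.31); they encode the calcium-binding proteins that fill the neutrophil cytosol. Retnlg, which encodes a resistin-like protein of granulocytes, had 13.0 and 1.88 FPKM (-2.28).

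Camp, Ngp and Ltf lie on the same chromosome within 1195 kb, with 572 kb between the starts of the Camp and Ngp loci and 599 kb between those of Ngp and Ltf. Of the 28 other genes of the table in this interval, 14 reached that minimum. Their log2 ratios ran from -0.23 (Klhl18) to 0.19 (Kif9 and Ccdc12), with a median of 0.06, and 0 of the 14 were 2-fold lower or higher. Ptpn23 and Klhl18, on either side of Ngp, were at 8.95 and 8.86 FPKM and at 8.63 and 7.21 FPKM. Around Mmp8, within 250 kb, 7 of the 8 other metalloproteinase genes were listed at 0 in both genotypes. Next to Elane, the primary granule protease gene Prtn3 had 0.414 FPKM in wt/fl against 0.0363 FPKM in fl/fl. Cfd, on the other side of Elane, had 0.171 and 0.182 FPKM. Both stayed under a mean of 1 FPKM, where a difference between 1 pooled value each is uncertain.

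**Figure D3:**
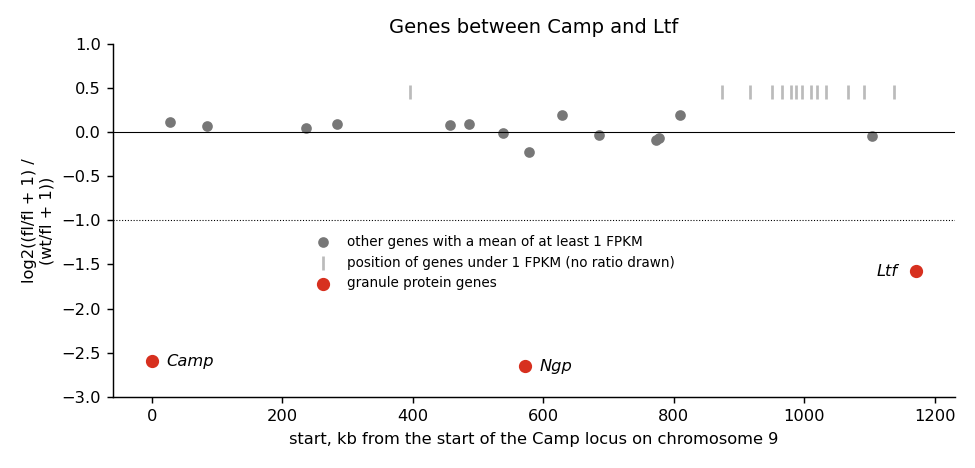
The log2 ratio of fl/fl over wt/fl with 1 FPKM added is plotted for the genes from Camp to Ltf against the distance in kb of their start from that of Camp. The 14 other genes that reached a mean of 1 FPKM lie between -0.23 and 0.19, and the 3 granule genes lie at -2.59, -2.65 and -1.57; ticks mark genes under 1 FPKM, whose ratios are not drawn.

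Among the other granule protein genes, listed by granule type, Ctsc, Gusb, Cyba, Cybb and Ceacam1 had log2 ratios from -0.08 to 0.09. The others that reached a mean of 1 FPKM were further from 0. Of 7 other primary granule genes, 3 reached the minimum of 1 FPKM and 0 were 2-fold lower or higher (median -0.07). The highest were Ctsc, which encodes the protease that activates granule serine proteases, at 80.2 and 85.2 FPKM, and Gusb (beta-glucuronidase) at 18.0 and 17.2 FPKM, and the furthest from 0 was Cd63 at 3.81 and 2.40 FPKM. Under the minimum, Prtn3 was at 0.414 and 0.0363 FPKM and Prss57 at 0.455 and 0.399 FPKM. Ctsg and Bpi were listed at 0 in both genotypes. Of 8 other secondary granule genes, 6 passed the minimum, with a median of -0.21. Cyba and Cybb, the subunits of the cytochrome of the NADPH oxidase, were at 200 and 210 FPKM and at 87.8 and 83.3 FPKM, and Plaur, the urokinase receptor gene, at 61.7 and 48.7 FPKM (-0.34). Chi3l3, which encodes a chitinase-like lectin of myeloid cells, was at 4.02 and 1.47 FPKM, the only gene of this list at least 2-fold lower. The 4 other tertiary granule genes stayed under the minimum and summed to 2.09 and 1.38 FPKM, with Adam8 at 0.897 and 0.832 FPKM, Slc11a1 at 1.01 and 0.468 FPKM and Fcnb listed at 0. The 4 genes of secretory vesicles, the compartment that fuses most readily with the cell surface, also stayed under it. All 4 had lower values in fl/fl (summed 2.37 and 0.514 FPKM), as did 54.9% of the genes with a mean of 0.2 to 1 FPKM, among them the formyl peptide receptor gene Fpr2 at 0.727 and 0.159 FPKM and Alpl at 0.637 and 0.251 FPKM.

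Of 6 genes of inhibitors of granule proteases, 3 reached the minimum, with a median of 0.37, and they went both ways. Serpinb1a, an inhibitor of neutrophil serine proteases, was at 120 FPKM in wt/fl against 173 FPKM in fl/fl (log2 ratio 0.52), and Serpinb6a at 6.70 and 8.96 FPKM (0.37), whereas Slpi, another such inhibitor, was at 4.65 and 3.39 FPKM (-0.36). Timp1, Timp2 and Timp3, inhibitors of metalloproteinases, were at or below 0.553 FPKM in both genotypes. The 4 genes of receptors for granule proteins were under 1 FPKM, with Fpr2 as above and Trem1 at 0.310 and 0.427 FPKM, and summed to 1.54 and 1.15 FPKM. Of 7 genes of granulocyte transcription factors, 4 passed the minimum (median -0.11). Sfpi1 (PU.1) was at 52.8 and 58.3 FPKM and Runx1 at 36.4 and 34.1 FPKM, both factors that B cells use too, and Cebpb at 1.46 and 0.909 FPKM. Cebpe, which encodes C/EBP epsilon, was at 0.257 FPKM in wt/fl and listed at 0 in fl/fl. As for Mpo and Elane, a genotype difference cannot be read from 1 pooled value each at a level this low.

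Markers of other cells were compared in the same way. Among those of neutrophils, the S100 genes and Retnlg were at least 2-fold lower in fl/fl, and the others over the minimum differed by less. Without an added FPKM, S100a8 kept 17.8%, S100a9 19.7% and Retnlg 14.4% of the wt/fl level. Ltf, Lcn2, Ngp and Camp kept 5.11% to 11.1%. S100a8 and S100a9 summed to 320 FPKM in wt/fl against 60.3 FPKM in fl/fl, 18.8% of the wt/fl level. Of 13 listed neutrophil markers outside the granules, 10 were found in the table under the symbols searched and summed to 30.8 and 13.4 FPKM. All 10 had a lower value in fl/fl, where 49.5% of the genes over the minimum and 54.9% of those with a mean of 0.2 to 1 FPKM did, and 5 of the 10 were under the minimum. Retnlg was the only one at least 2-fold lower of the 5 over the minimum (median -0.53), and the other 4 kept a larger share of the wt/fl level, from 53.9% for Il1b to 82.8% for Cxcr2, a chemokine receptor gene at 5.99 and 4.96 FPKM. Stfa2 and Stfa3 were listed at 0 in fl/fl. Their part in the granule gene values was not tested. In RNA of a whole sample, fewer cells of a type and less RNA per cell cannot be told apart.

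**Figure D4:**
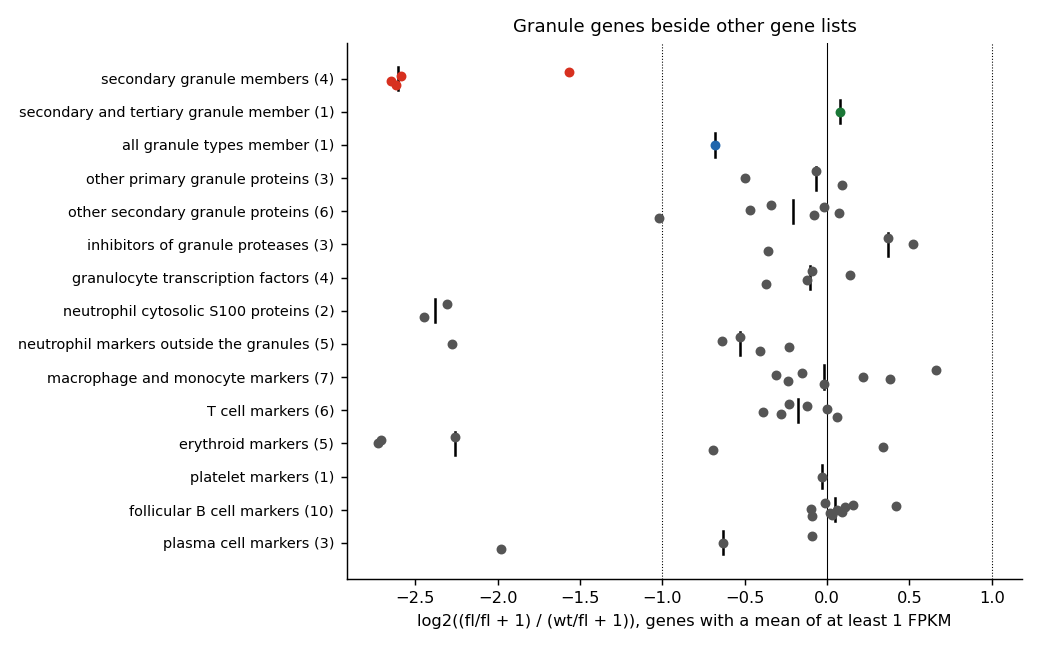
Each point is the log2 ratio of a gene, fl/fl over wt/fl with 1 FPKM added, by list for genes whose mean reached 1 FPKM (their number in brackets); bars mark list medians, dotted lines 2-fold, and Mpo, Elane, Mmp8 and Mmp9 are under the minimum. The secondary granule genes (median -2.61) and the S100 genes (-2.38) lie near the erythroid markers (-2.26), below the neutrophil markers outside the granules (-0.53) and the macrophage (-0.02), T cell (-0.17) and B cell (0.04) markers. With 0.1 FPKM added in place of 1, the first 3 medians were further apart, at -3.28, -2.41 and -2.54.

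Macrophages and monocytes express Lyz2 as well. Their markers summed to 23.1 FPKM in wt/fl against 22.6 FPKM in fl/fl over 14 genes, 7 lower and 7 higher, with a median of -0.02 over the 7 that passed the minimum. Cd68 was at 7.41 and 6.10 FPKM, Ly6c2 at 3.56 and 2.68 FPKM, and Hmox1 at 1.51 and 2.98 FPKM. T cell markers summed to 26.5 and 24.5 FPKM (6 of 9 genes over the minimum, median -0.17), with Lck at 14.5 FPKM in both genotypes, Cd3d at 3.02 and 2.31 FPKM and Cd3g at 1.96 and 1.26 FPKM. The 9 eosinophil, basophil and mast cell markers in the table stayed under the minimum and summed to 2.06 and 1.59 FPKM, with the eosinophil granule gene Prg2 at 0.690 FPKM in wt/fl and listed at 0 in fl/fl, Ms4a2 at 0.629 and 1.02 FPKM, and Siglec5 listed at 0 in fl/fl. The 5 platelet markers summed to 2.49 and 3.58 FPKM, with Ppbp at 1.43 and 1.38 FPKM, Gp1ba at 0.618 and 1.07 FPKM and Gp9 listed at 0 in fl/fl.

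Globin genes and the plasma cell gene Igj were lower in fl/fl as well. The 8 erythroid gene names summed to 121 and 32.5 FPKM, and of the 5 over the minimum (median -2.26) the 3 that were at least 2-fold lower were the globins. Car2 was at 11.7 and 6.91 FPKM, and Bpgm, which encodes a red cell enzyme, was at 9.08 and 11.8 FPKM (log2 ratio 0.34). The 5 plasma cell genes summed to 57.6 and 48.5 FPKM, 84.3% of the wt/fl level. Most of that sum was Xbp1, which B cells also express, at 48.8 and 45.9 FPKM. Of the other genes over the minimum, Igj (J chain) was at 5.40 and 0.617 FPKM (log2 ratio -1.98) and Sdc1 at 2.30 and 1.13 FPKM (-0.63). Whether these differences and those of the granule genes came from the same samples was not tested, since the deposited values are pooled.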

How the data were processed

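Libraries from amplified RNA of sorted follicular B cells (3 per genotype) were processed by the authors with Bowtie, TopHat and Cufflinks, per the labels without versions. The authors deposited FPKM in a table in the layout of Cuffdiff, with 1 value per genotype pooled over the samples and 1 entry per set of transcripts with a common coding sequence. The labels name mm10, but Myh9 starts at 77591018 in the table and at 77760587 in GENCODE M21 on GRCm38, so positions were read as mm9 and not converted. The table's fold changes, test statistics, p-values and q-values are the authors' own comparison and were not used. With the sample values pooled, no test was possible.

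FPKM was summed per gene name. Log2 ratios were formed with a pseudocount of 1, genes were counted from a mean of 1 FPKM, and 2-fold was the limit for calls. Alternatives were pseudocounts of 0.5 and 0.1, no minimum or 5 FPKM, upper quartile scaling, the most abundant entry, and limits of 1.5-fold and 4-fold. The ranges of mean FPKM used for background shares were set after the values were seen. The granule genes and 16 other lists were chosen with earlier results of these data known. Named were the granule genes, Myh9, S100a8, S100a9, the 2 highest genes and the furthest from 0 in each list, and the 5 genes nearest in ratio; neighbours and genes listed at 0, with a few further list members, were named after their values were seen. Symbols in the lists were also searched by an older name where one was known. Computations used Python 3.11.15, pandas 2.3.3 and Biopython 1.88 and were tested on simulated data.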

Additional observations from a re-analysis of the deposited data

How the results depend on the processing

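The log2 ratios of 9 of the 10 granule genes were below 0, and that of Pglyrp1 above 0, with and without upper quartile scaling. The other alternatives could not change a sign. A pseudocount keeps it, each granule gene had a single entry, and the minimum does not enter a gene's own ratio. The median over the secondary granule genes that passed the minimum, -2.61, became -2.89 with a pseudocount of 0.5, -3.28 with 0.1, -2.62 with upper quartile scaling, -2.59 with no minimum and -2.62 with a minimum of 5 FPKM. The median over the granule genes that passed the minimum, -2.08, became -2.51, -3.19, -2.09, -0.74 and -2.59 in the same order; without a minimum it takes in Mpo, Elane, Mmp8 and Mmp9, whose ratios an added 1 FPKM compresses. The count of 4 granule genes at least 2-fold lower became 5 at 1.5-fold, with Lyz2, and 3 at 4-fold, without Ltf. Over all genes, the 40 lower and 9 higher became 77 and 34 with a pseudocount of 0.1, 23 and 0 at a minimum of 5 FPKM, 151 and 78 at 1.5-fold and 10 and 0 at 4-fold; the 9 higher became 22 with a pseudocount of 0.5 and 19 with the most abundant entry of each gene. No paired analysis was possible because the deposited values are pooled over the samples of a genotype, and for the same reason leaving out each replicate was not run. Depth is unknown, so no error can be given for any value, those under 1 FPKM included.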
